A study of Mus musculus with 9 samples.

Results

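The proteasome is the protease that degrades most ubiquitin-tagged proteins in the cell. Of 41 genes listed for its subunits and activators, 35 were in the table with a probe set that carried a single gene symbol, out of 14440 such genes in all. Where a gene had several probe sets, the brightest on average stood for it, and all 35 passed the filter on low values, with levels above the floor on 9 of 9 arrays. Psma3, Psmb6, Psmb9, Psmc5, Psmd9 and Psme2 were not analysed here.

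Expression arrays were run on 5 tumours and on 4 pieces of skeletal muscle from mice. The tumours came from mice labelled MYF-5 CRE/SSM2, in a series on a model of synovial sarcoma driven by the SYT-SSX fusion, and were labelled CC23 (tumour 1), CC17-B (tumour 2), CC17-A (tumour 3), SSM5 (tumour 4) and SSM4 (tumour 5). The muscle samples were titled wild type and came from hind limb (muscle 1), the intercostal muscles (muscle 2), forelimb (muscle 3) and hind limb again (muscle 4). Myf5, whose gene drives Cre here, is a transcription factor of muscle precursors, so Cre acts in cells of that lineage. Genotype differed together with tissue, and strain, age and the number of animals were not given in the labels. Tumours 2 and 3 share the name CC17, and whether they came from the same animal was not stated. The p-values measure only the spread between these samples, which may in part be technical.

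In the proteasome, a core particle made of stacked rings holds the active sites. The outer rings of alpha subunits gate the entry, and the inner rings of beta subunits hold the protease sites, in Psmb5, Psmb6 and Psmb7. A regulatory particle caps the core. Its base contains the ATPases that unfold substrates, and its lid removes ubiquitin. In immune cells, and after interferon in many others, Psmb8, Psmb9 and Psmb10 take the places of Psmb5, Psmb6 and Psmb7, which changes the peptides made for antigen presentation. In skeletal muscle the proteasome is known for the breakdown of myofibrillar proteins during atrophy.

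Proteasome genes were called lower in the tumours more often than higher. Of 35 tested, 16 fell, 1 rose and 18 were not called, at an adjusted p under 0.05 in the fit over 10650 genes, of which 48% were called. Lower calls made up 45.7% of the proteasome genes, against 17.9% of all genes tested, and higher calls 2.86% against 30.1%. The median log2 fold change, tumour minus muscle, was -0.62 for the proteasome genes and 0.23 for all genes tested. The sign was negative for 29 of the 35. The 5 tumours and 4 muscles did not overlap for 11 genes that were lower in tumour, beside 15.1% of all genes, and for 1 that was higher, beside 25.2%. In either direction these were 12 of 35 proteasome genes and 40.3% of all genes. Without tumour 1 and muscle 2, the arrays that stood apart as described below, 20 fell and 2 rose. That setting was added after the values were seen. With quantile normalization 10 fell and 1 rose, and the median was -0.25, against 0.09 for all genes. The count of all genes called also moved, from 3755 to 5297 over 25 alternative settings, against 5112 in the main fit. Cytosolic ribosomal proteins, another set of housekeeping genes, gave 0 lower and 3 higher calls of 33 tested, with a median of 0.02. In pieces of tissue, fewer cells of a type and less RNA per cell cannot be told apart.

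**Figure D1:**
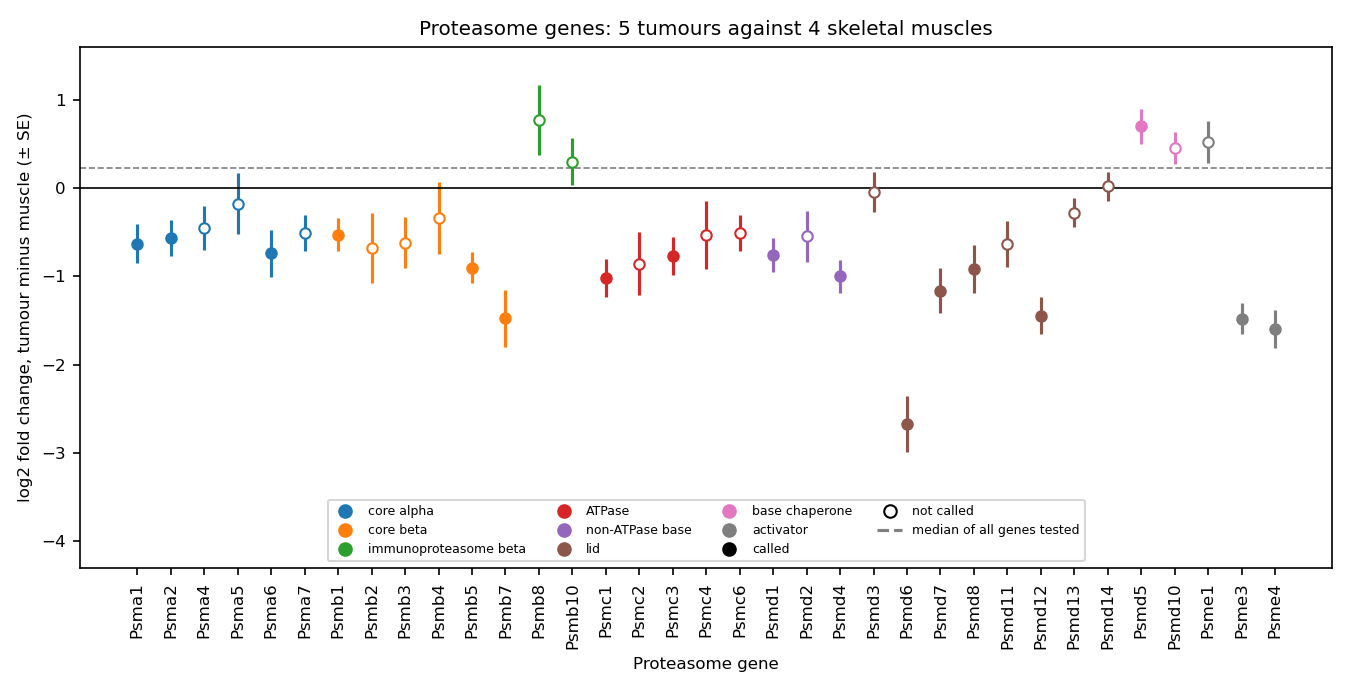
Log2 fold change of each proteasome gene, tumour minus muscle, with its standard error, coloured by subcomplex. Filled points passed an adjusted p of 0.05, the solid line is at 0 and the dashed line is the median of all genes tested, 0.23. Most points lie below 0, Psmd6 lies lowest at -2.67, and Psmb8, Psmb10, Psmd5, Psmd10, Psme1 and, at 0.02, Psmd14 lie above 0.

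The arrays differed in ways that touch these values. The ratio of the 3-prime to the 5-prime control probe set of Actb, a sign of RNA integrity, was 12.7 in tumour 1, 1.99 to 4.54 in the other tumours and 1.62 to 1.93 in muscle. Of markers of the labelled tissues, 7 of 7 for synovial sarcoma-type tumours were higher in tumour and 10 of 11 for muscle fibres lower. Among all genes tested, 30.1% were higher and 17.9% lower. The marker lists were chosen with earlier results of these data known, so their counts are no independent test of the tissues. The summed level of the fibre markers ran from 667 in tumour 4 to 115881 in tumour 5, and from 461376 to 642072 in muscle. Summed proliferation markers ran from 12945 to 23965 in tumours and from 2181 to 3637 in muscle, with 6 of 6 higher in tumour. Muscle 2 had the highest sum of adipocyte markers, 115131 against 28332 to 35009 in the other muscles and 463 to 33787 in tumours. Of the other marker lists, 3 of 7 endothelial genes were lower in tumour, and of 5 fibroblast genes 2 were higher and 1 lower. The part of these in the results was not tested.

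Among the alpha subunits of the core, 3 of 6 were lower and 0 higher, with a median of -0.53. By the probe sets used, the groups overlapped for every gene. The largest fall was in Psma6, with levels of 16988, 14750, 9636, 10273 and 9010 in tumours 1 to 5 and 22622, 12899, 21590 and 23223 in muscles 1 to 4. Muscle 2 lay within the tumour range, and the other muscles lay above it. The log2 fold change of Psma6 was -0.73 (SE 0.27, adjusted p = 0.0398). A further probe set of Psma6 gave -0.92 (adjusted p = 0.00131 in a fit over all probe sets). By that set the groups did not overlap, with tumours at 4799 to 6427 and muscles at 9390 to 11263. A dim probe set of Psma6 gave -0.56 and was not called. Psma1 and Psma2, also of the gate ring, had log2 fold changes of -0.63 and -0.56 (adjusted p = 0.0343 and adjusted p = 0.0375). By the probe sets used, the calls of Psma1, Psma2 and Psma6 sat close to the threshold. That of Psma1 ended without tumour 3, tumour 4 or any 1 of the 4 muscles, and that of Psma6 without tumour 3, 4 or 5 or muscle 1, 3 or 4. Psma2 was called in only 1 of the 9 fits that each left out an array, that without tumour 2. Without these arrays the adjusted p rose to at most 0.0770 for Psma1, 0.107 for Psma6 and 0.0852 for Psma2. Quantile normalization brought Psma1, Psma2 and Psma6 to -0.25, -0.23 and -0.01, none of them called (adjusted p = 0.365, 0.367 and 0.958). Psma7 was not called at -0.51 (adjusted p = 0.0608), but was without tumour 1, tumour 2 or muscle 2 (adjusted p = 0.0428 to 0.0466). Psma4 and Psma5 were not called, at -0.45 and -0.18.

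Among the constitutive beta subunits of the core, 3 of 6 were lower and 0 higher, with a median of -0.65. Psmb5, which carries the chymotrypsin-like site and is the main target of proteasome inhibitors, stood at 3654, 3192, 3694, 3185 and 4128 in tumours 1 to 5. In muscles 1 to 4 it stood at 6959, 5224, 7017 and 7617, so every tumour lay below every muscle. The mean was 3571 ± 395 (SD, n = 5) against 6704 ± 1031 (SD, n = 4), which is -0.90 on the log2 scale (SE 0.18, adjusted p = 0.00186). Psmb7, which carries the trypsin-like site, was at 3034, 5138, 6787, 8261 and 10816 in tumours 1 to 5 and at 15499, 18788, 16240 and 19168 in muscles 1 to 4. Its groups did not overlap either, although the tumours spanned a 3.56-fold range. Its log2 fold change was -1.47 (SE 0.32, adjusted p = 0.00324), the largest fall among the core subunits. With quantile normalization it was -0.77 (adjusted p = 0.131), and with the Actb ratio as a covariate -0.94 (adjusted p = 0.0261). Psmb1, a subunit without an active site, was lower by a small margin, at -0.53 (adjusted p = 0.0387). Its call ended without tumour 3, tumour 4 or muscle 1, 3 or 4 (adjusted p up to 0.124), and under 13 of 25 alternatives in all. With quantile normalization Psmb1 was at -0.13 (adjusted p = 0.541). Its further tested probe sets gave -0.79 and -0.92 and were not called (adjusted p = 0.0550 and adjusted p = 0.116 in the fit over all probe sets).

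The other beta subunits, Psmb2, Psmb3 and Psmb4, have no active site and were not called, with log2 fold changes of -0.68, -0.62 and -0.34. They varied among the tumours, over a 5.23-fold range for Psmb2, where the muscles spanned 1.06-fold. Psmb2 stood at 602, 831, 1242, 1821 and 3149 in tumours 1 to 5 and at 2008 to 2135 in muscle, so tumour 5 lay above every muscle and the other tumours below. Without tumour 5 its log2 fold change was -0.998 (adjusted p = 0.0214). Psmb4 ran the other way, at 21445, 17240, 8040, 5591 and 5916 in tumours 1 to 5 against 13921, 9069, 14163 and 14130 in muscle. Without tumour 1 Psmb3 was lower, at -0.83 (adjusted p = 0.0113).

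Neither of the immunoproteasome subunits measured was called. Psmb8, the inducible counterpart of Psmb5, was at 318, 356, 591, 638 and 1159 in tumours 1 to 5 and at 189, 439, 245 and 470 in muscles 1 to 4. The groups overlapped, since muscles 2 and 4 lay above tumours 1 and 2. Its log2 fold change was 0.78 (SE 0.40, adjusted p = 0.127), with a 95% interval of -0.09 to 1.65, so it was not called. With the Actb ratio as a covariate it was 1.26 and called (adjusted p = 0.0410). Psmb10, the counterpart of Psmb7, was at 567, 451, 635, 716 and 1219 in the tumours and 507, 572, 638 and 483 in the muscles, a difference of 0.30 on the log2 scale (SE 0.27, adjusted p = 0.381). Tumour 5 was the highest of the 9 arrays for both genes.

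**Figure D2:**
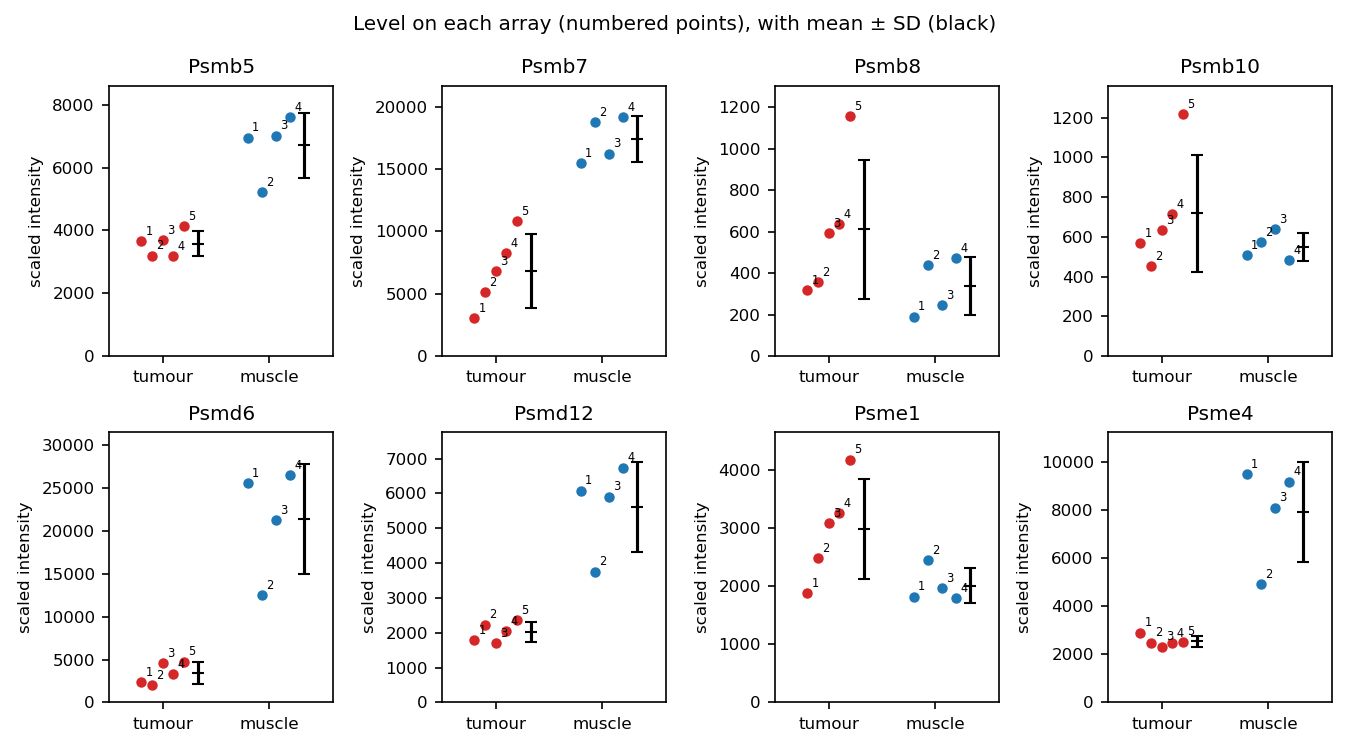
Level on each array, in scaled intensity, for the 4 catalytic subunits measured and for Psmd6, Psmd12, Psme1 and Psme4, with numbered points for the 5 tumours and 4 muscles and the mean ± SD in black. Each vertical axis starts at 0. Tumours and muscles do not overlap for Psmb5, Psmb7, Psmd6, Psmd12 and Psme4, and overlap for Psmb8, Psmb10 and Psme1.

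The balance between inducible and constitutive subunits was compared within each array, where the scaling of the array cancels apart from the pseudocount. The log2 ratio of Psmb8 to Psmb5 was -3.46, -3.11, -2.61, -2.29 and -1.82 in tumours 1 to 5 and -5.09, -3.53, -4.75 and -3.97 in muscles 1 to 4. Every tumour lay above every muscle, tumour 1 by a narrow margin over muscle 2. The difference of the means was 1.68 on the log2 scale (two-sided exact permutation p = 0.0159, 0.0159 after Benjamini-Hochberg adjustment over the 2 ratios). The log2 ratio of Psmb10 to Psmb7 was -2.39, -3.47, -3.39, -3.50 and -3.13 in the tumours and -4.89, -5.00, -4.64 and -5.26 in the muscles, with no overlap. Its difference was 1.77 (exact permutation p = 0.00794, adjusted 0.0159), where 0.00794 is the smallest p that the 126 splits of the arrays can give. The shift in the second ratio came mainly with the lower Psmb7, since Psmb10 itself differed by 0.30. Under quantile normalization the differences were smaller, 1.11 and 0.82.

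**Figure D3:**
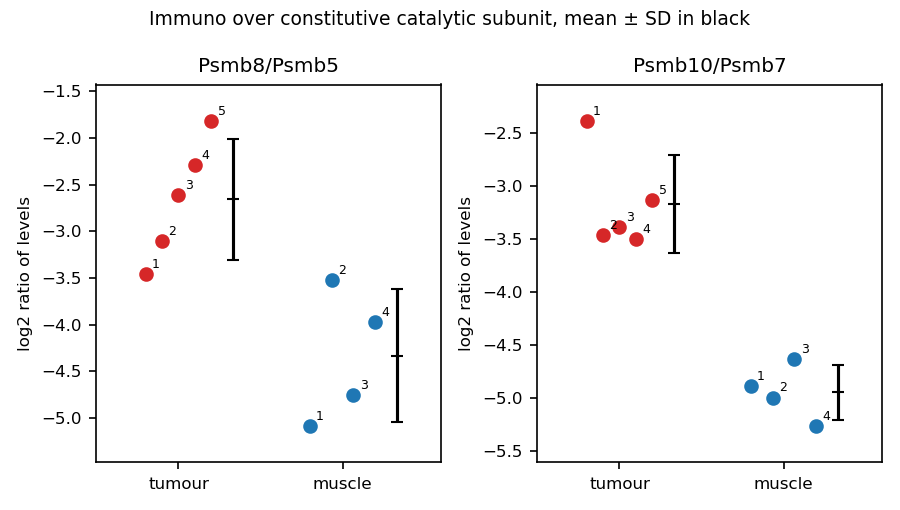
Log2 ratio of the levels of an inducible to its constitutive catalytic subunit on each array, Psmb8 over Psmb5 on the left and Psmb10 over Psmb7 on the right, with numbered points and the mean ± SD in black. All 5 tumours lie above all 4 muscles in both panels, and the means differ by 1.68 and 1.77.

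Markers of immune cells were measured beside the inducible subunits. Of 15 macrophage and myeloid markers, 8 were in the table, and 3 of the 7 tested were higher in tumour (42.9%, against 30.1% of all genes). Adgre1, Cd14, Laptm5 and Fcer1g were not called. Itgam, too dim to be tested, was lower in every tumour than in every muscle. The summed level of the 8 markers was 6691, 13053, 7525, 14000 and 17701 in tumours 1 to 5 and 5133 to 6263 in muscle. Of 16 lymphocyte markers 13 were in the table, 10 were too dim to be tested, among them Cd3e, Cd3d, Cd4 and Cd8a, and 0 of the 3 tested were called. Their sum was 1488 to 5594 in tumours, highest in tumour 5, and 1581 to 4089 in muscle. No marker of either list had a value of exactly 0. Their part in the levels of Psmb8 and Psmb10 was not tested.

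Among the ATPases of the regulatory particle, 2 of 5 were lower and 0 higher, with a median of -0.76. Psmc1 had the largest fall, with levels of 1453, 1749, 1085, 1287 and 1813 in tumours 1 to 5 and 3417, 2236, 2960 and 3372 in muscles 1 to 4. The groups did not overlap, and the log2 fold change was -1.02 (SE 0.21, adjusted p = 0.00250). Psmc3 fell by 0.76 on the log2 scale (SE 0.22, adjusted p = 0.0130), although tumour 5, at 5549, just exceeded muscle 2, at 5529. With quantile normalization its call ended (adjusted p = 0.0988). Psmc2, Psmc4 and Psmc6 had values of -0.86, -0.53 and -0.50 and were not called by the probe sets used. Further probe sets of Psmc6 were called lower, at -1.26 and -1.34 (adjusted p = 0.000677 and adjusted p = 0.0107 in the fit over all probe sets). The further probe set of Psmc4 gave -0.06 and was not called. Muscle 2 was the lowest muscle for Psmc2, at 8425 against 17639 to 19381, and tumour 1 the highest tumour, at 15868. Leaving out tumour 1, Psmc2 was called at -1.09 (adjusted p = 0.0148) and Psmc6 at -0.62 (adjusted p = 0.0139), and without muscle 2, Psmc2 was called at -1.14 (adjusted p = 0.0189). With both arrays left out Psmc4 was called as well, at -1.04 (adjusted p = 0.0149).

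The non-ATPase subunits of the base are the scaffold Psmd1, its partner Psmd2 and the ubiquitin receptor Psmd4. Psmd1 and Psmd4 were lower without overlap of the groups, and Psmd2 was not called at -0.55. Psmd4 was at 2466, 2155, 2294, 2030 and 2484 in tumours 1 to 5 and at 4956, 3334, 4812 and 5494 in muscles 1 to 4. The tumours were alike, within a 1.22-fold range, and all lay below the lowest muscle. Its log2 fold change was -1.0 (SE 0.19, adjusted p = 0.00126), and that of Psmd1 was -0.75 (SE 0.20, adjusted p = 0.00824). A dim further probe set of Psmd4 gave 0.28 and was not called.

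By the probe sets used, the largest change was in the lid, in Psmd6. By its further probe set, at -1.51, Psmd6 fell less than the activator Psme4, at -1.59. Of the 8 genes listed for the lid, 4 were lower and 0 higher, with a median of -0.77 and a range from -2.67 to 0.02. Sem1, counted here with the associated proteins and not with the lid, was at 0.04 and not called. It was named after its value was seen. Psmd6, a structural lid subunit, was at 2360, 2001, 4626, 3321 and 4757 in tumours 1 to 5 and at 25594, 12473, 21225 and 26499 in muscles 1 to 4. The lowest muscle lay far above the highest tumour. The log2 fold change was -2.67 (SE 0.32, adjusted p = 7.4e-05), a 6.37-fold fall. A further probe set of Psmd6 gave -1.51 (adjusted p = 0.00036 in a fit over all probe sets), in the same direction but smaller. The set used was the brighter of these in every muscle, but the dimmer in tumours 1, 2 and 4. It was chosen by its mean over all arrays, which muscle raised, so the size of the fall rests in part on that choice. Psmd12, another structural subunit, was at 1780, 2232, 1703, 2047 and 2366 in the tumours and at 6077, 3756, 5911 and 6739 in the muscles, which is -1.44 on the log2 scale (SE 0.21, adjusted p = 0.00025). Psmd7, the partner of the deubiquitinase, fell by 1.16 (adjusted p = 0.00295) and Psmd8 by 0.91 (adjusted p = 0.0155), both without overlap. The call of Psmd7 ended when its probe sets were averaged, one of them too dim to test, at -0.73 (adjusted p = 0.0596). The call of Psmd8 ended without muscle 4 (adjusted p = 0.0519), with ribosomal protein genes setting the scale (adjusted p = 0.0923) and with the Actb ratio as a covariate, where it was -0.46 (adjusted p = 0.137).

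The other lid genes were not called. Psmd14, the lid's deubiquitinase, was at 3566, 4340, 4629, 4987 and 4349 in tumours 1 to 5 and at 4525, 3823, 4342 and 4498 in muscles 1 to 4. The groups were interleaved, and the log2 fold change of 0.02 had a 95% interval of -0.35 to 0.39. Psmd3 had -0.05, with an interval of -0.54 to 0.45. The sign of both rested on the scaling or on single arrays. Psmd13 was at -0.28, with an interval of -0.64 to 0.08. Psmd11, a subunit linked to proteasome assembly, was not called at -0.63 (adjusted p = 0.0695), but was without tumour 1 (adjusted p = 0.0136) or muscle 2 (adjusted p = 0.0358). Further probe sets of Psmd11 were called lower, at -1.28 and -1.05 in the fit over all probe sets. Its other tested sets gave -0.49 and -0.83 and were not called there (adjusted p = 0.193 and adjusted p = 0.0548). The interval of Psmd14 lay above that of Psmd6, which ran from -3.38 to -1.97.

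The base chaperones help to assemble the regulatory particle and leave it afterwards. Psmd5 was the only proteasome gene called higher in tumour, at 1015, 1395, 1088, 1418 and 1403 in tumours 1 to 5 and at 751, 1003, 636 and 710 in muscles 1 to 4. All tumours lay above all muscles, with tumour 1 barely above muscle 2. The log2 fold change was 0.70 (SE 0.20, adjusted p = 0.0138), and the call ended without muscle 3 (adjusted p = 0.0514). The call was lost too when the deposited values were left unscaled (adjusted p = 0.111), and when the median or the ribosomal protein genes set the scale (adjusted p = 0.108 and adjusted p = 0.175). Psmd10, also known as the oncoprotein gankyrin, had a log2 fold change of 0.46 and was not called (adjusted p = 0.0557). When tumour 2 was left out, Psmd10 was called (adjusted p = 0.0295).

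The activators bind the ends of the core in place of the regulatory particle, and they split. Psme4, a nuclear activator, was at 2910, 2492, 2319, 2454 and 2525 in tumours 1 to 5 and at 9490, 4916, 8108 and 9190 in muscles 1 to 4. All tumours lay within a 1.25-fold range, below every muscle. The log2 fold change was -1.59 (SE 0.22, adjusted p = 0.000157), and 2 further probe sets gave -1.58 and -1.78. Its other tested probe sets, both dim, gave -0.79 and -0.47 and were not called. Psme3, the nuclear activator of a different family, was at 317 ± 34.5 (SD, n = 5) against 912 ± 88.7 (SD, n = 4), which is -1.48 on the log2 scale (SE 0.18, adjusted p = 7.3e-05). A second Psme3 probe set gave 0.28 and was not called (adjusted p = 0.561), so the fall rests on 1 of the 2. The set used had the higher mean through muscle, at 816 to 1009 against 305 to 398 by the second set. In tumours 2 to 5 the second set was the brighter, at 413 to 890 against 294 to 371. Psme1, which forms the interferon-induced activator with Psme2, was at 1884, 2474, 3086, 3254 and 4172 in tumours 1 to 5 and at 1817, 2444, 1967 and 1793 in muscles 1 to 4. Tumour 1 lay below muscle 2, and the other tumours lay above all muscles. The log2 fold change was 0.53 (SE 0.24, adjusted p = 0.0878). It was called at 0.68 when tumour 1 was left out (adjusted p = 0.0164), and with the Actb ratio as a covariate 0.86 (adjusted p = 0.0158).

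**Figure D4:**
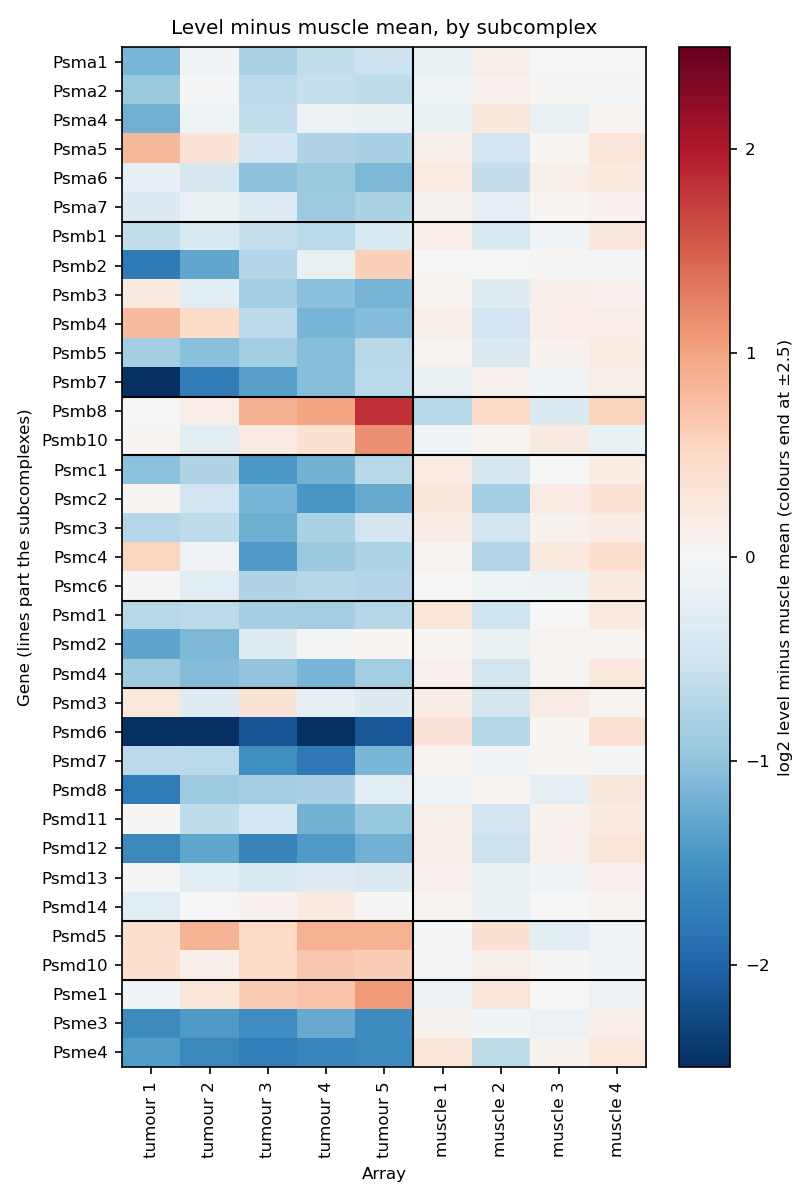
Log2 level of each proteasome gene on each array minus its mean over the 4 muscles, from blue (lower) to red (higher), with lines between the subcomplexes and between tumours and muscles. Colours end at ±2.5. Psmd6 is dark blue in all 5 tumours, Psmb8, Psmb10 and Psme1 are reddest in tumour 5, and in tumour 1 Psma5, Psmb4 and Psmc4 are red while Psmb7 is dark blue.

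The tumours did not share 1 pattern across the subunits. Over all 35 genes, the mean log2 level minus the muscle mean was -0.60, -0.55, -0.69, -0.68 and -0.49 in tumours 1 to 5, so the tumours were alike on average. Single genes were not, since tumour 1 was the highest tumour for 11 genes and the lowest for 12, and tumour 5 was the highest for 13. For the ATPases the mean was -0.23 in tumour 1 and -1.20 in tumour 3. For the immunoproteasome subunits it was 0.03 in tumour 1, -0.05 in tumour 2 and 1.48 in tumour 5. Muscle 2, from the intercostal muscles, was the lowest muscle for 22 of the 35 genes, with a mean of -0.22 against 0.02 to 0.15 in the other muscles.

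Probe sets of the same gene differed for tumour 1, the array with the highest Actb ratio. For Psmb4, tumour 1 was the highest tumour by the probe set used, at 21445, and the lowest by a further probe set, at 5258 against 6012 to 7483 in the other tumours. For Psmb3 it was the highest at 12751, and the lowest by the further probe set, at 1536 against 2688 to 3177. The same held for Psmc2, at 15868 by the probe set used and 2530 by the further one, against 3337 to 5334. The further probe sets of Psmb4 and Psmc2 were called lower in tumour, at -0.49 and -1.16 (adjusted p = 0.0418 and adjusted p = 0.00474 in the fit over all probe sets), where the probe sets used were not. Where on the transcripts the probe sets lie was not used here, and the part of the Actb ratio in this was not tested.

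Over all probe sets of the proteasome genes, 62 of 73 were tested, of which 27 were lower, 1 higher and 34 not called. In the same fit, 7358 of 17433 probe sets of all genes were called in either direction. By at least 1 probe set, 20 genes were lower, a count that gives genes with several probe sets more chances. No matching count was made for all genes. Of 16 genes with more than 1 tested probe set, 3 had fold changes of both signs, and 0 had calls in opposite directions. The genes with both signs were Psma1, Psmd4 and Psme3. Of the 16, 10 had some but not all of their probe sets called.

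**Figure D5:**
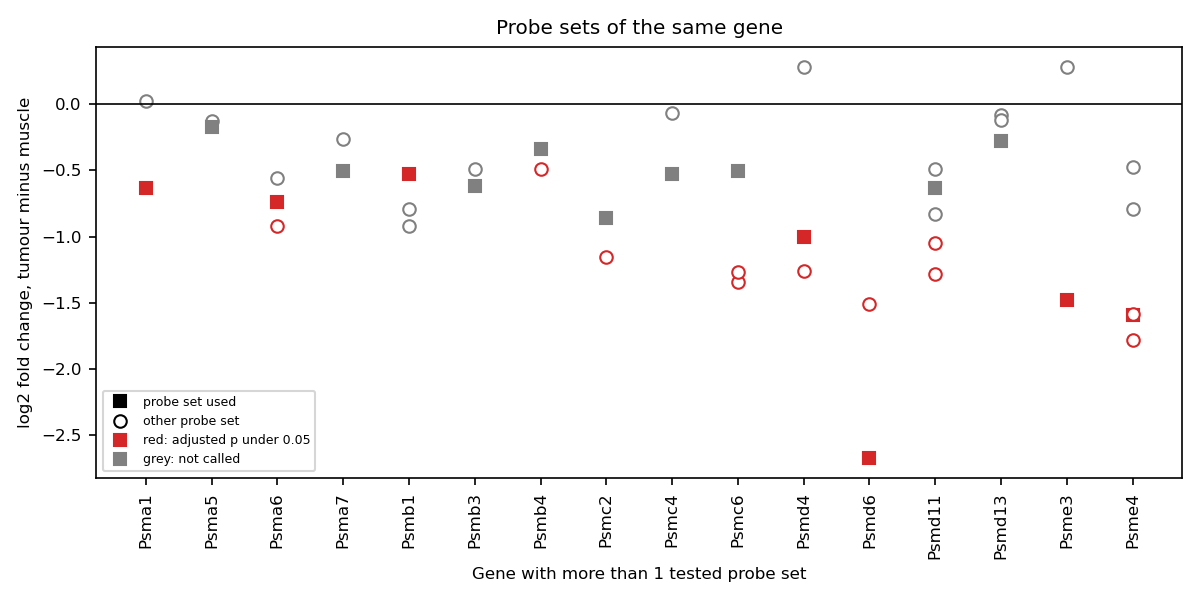
Log2 fold change, tumour minus muscle, of every tested probe set for the 16 proteasome genes that have more than 1. Squares mark the probe set used, circles the others, and red an adjusted p under 0.05 in the fit over all probe sets. Psme3 spans -1.48 to 0.28, and Psmb4, Psmc2, Psmc6 and Psmd11 have circles called lower where the square is not.

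By the probe sets used, the lower call held for 11 genes in each of the 9 fits that left out an array. These were Psmb5 and Psmb7 of the core, Psmc1, Psmc3, Psmd1, Psmd4, Psmd6, Psmd7 and Psmd12 of the regulatory particle, and the activators Psme3 and Psme4. The second probe set of Psme3 was not called. For all genes no such count was made, so the 11 have no background beside them. The other 6 called genes, Psma1, Psma2, Psma6, Psmb1, Psmd8 and Psmd5, each lost the call without at least 1 array. Of the 11, Psmb5, Psmc1, Psmd1, Psmd6 and Psmd12 also kept the call under every other alternative that gave them a value.

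Nfe2l1, the transcription factor known to raise proteasome genes together when proteasome activity is short, was lower in the tumours. Its level was 1284 ± 356 (SD, n = 5) against 3182 ± 218 (SD, n = 4), which is -1.34 on the log2 scale (SE 0.22, adjusted p = 0.00056), with no overlap. The related Nfe2l2, a regulator of the oxidative stress response, had -1.17 (adjusted p = 0.0181), but -0.20 as a mean over its probe sets (adjusted p = 0.684) and -0.58 with the Actb ratio as a covariate (adjusted p = 0.174). Of 9 tested genes of this list, 2 were lower (22.2%, against 17.9% of all genes), 1 higher (11.1%, against 30.1%) and 6 not called. The lower share was thus near that of all genes. The higher gene was Nfya, a subunit of the CCAAT-binding factor, at 1.15. As a mean over its probe sets Nfya was not called, at 0.74 (adjusted p = 0.110).

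The promoters were read for the letters that such factors bind. RefSeq promoter windows of GRCm38.p6, from 250 bases before to 50 after each gene's start, were at hand for 29 of the 35 genes. The letters TGACNNNGC, an antioxidant response element of the kind bound by the Nfe2l1 protein, stood on either strand in 4 of the 29 genes, or 13.8%, against 14% of 27025 genes. The box CCAAT stood in 11 genes, or 37.9% against 41.1%. An interferon-stimulated response element, searched as GAAA, any 2 bases and GAAA, stood in 3, or 10.3% against 3.99%, and TTCNNNGAA, a gamma-interferon activation site that reads the same on both strands, in 2, or 6.90% against 9.55%. The motifs were searched one by one and may overlap in place. The share for TGACNNNGC was thus close to that of all genes. A match in these windows is only a match of letters, and no binding was measured.

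Stretches of 110 to 122 bases from these windows are shown, not whole windows. They come from Psmb5, Psmd12 and Psme4, which were lower in tumour and hold TGACNNNGC. They come also from Psmd6, which fell most by the probe sets used and whose whole window holds none of the 4 motifs. Psmc6, the other holder of TGACNNNGC, was not called. With them stand Psmb8, with TTCNNNGAA, and Psme1, with the interferon-stimulated response element, for the inducible genes. The other holders were not inducible subunits. Psmd2, not called at -0.55, holds TTCNNNGAA, and Psmb3, not called at -0.62, and Psmd4, called lower, hold the interferon-stimulated response element. Capitals mark the motif, and each sequence runs 5′ to 3′ along the gene. They lie in GRCm38.p6 at chr14:54617996-54618115 (Psmb5, minus strand), chr11:107479278-107479397 (Psmd12, plus strand), chr11:30771655-30771776 (Psme4, plus strand), chr14:14120946-14121065 (Psmd6, minus strand), chr17:34198045-34198164 (Psmb8, plus strand) and chr14:55578404-55578513 (Psme1, plus strand).
Psmb5: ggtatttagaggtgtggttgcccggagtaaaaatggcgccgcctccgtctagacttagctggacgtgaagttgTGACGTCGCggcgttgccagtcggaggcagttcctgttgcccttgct
Psmd12: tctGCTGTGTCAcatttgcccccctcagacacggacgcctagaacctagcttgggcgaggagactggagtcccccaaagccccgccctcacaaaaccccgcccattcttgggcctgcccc
Psme4: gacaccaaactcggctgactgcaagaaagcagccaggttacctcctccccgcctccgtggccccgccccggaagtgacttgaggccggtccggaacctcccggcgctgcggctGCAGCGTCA
Psmd6: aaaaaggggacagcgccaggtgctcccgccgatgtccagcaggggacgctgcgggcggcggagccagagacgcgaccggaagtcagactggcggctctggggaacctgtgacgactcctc
Psmb8: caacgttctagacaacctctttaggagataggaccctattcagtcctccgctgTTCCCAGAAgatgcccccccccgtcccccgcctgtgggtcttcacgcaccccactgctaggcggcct
Psme1: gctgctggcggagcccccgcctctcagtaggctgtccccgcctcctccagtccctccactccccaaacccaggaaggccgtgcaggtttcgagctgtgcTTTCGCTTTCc
The capitals in Psmd12, Psme4 and Psme1 hold the motif on the opposite strand.

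Genes that assemble or regulate the proteasome were read beside the 17.9% lower and 30.1% higher calls among all genes. Of 4 assembly chaperones tested, Psmg1, which helps to build the alpha ring, rose by 0.61 (adjusted p = 0.0389). Pomp, which builds the core and is consumed in it, fell by 0.54 (adjusted p = 0.0468). The call of Psmg1 ended under 12 of 25 alternatives and that of Pomp under 16. Of 14 associated and regulatory proteins, 3 were lower (21.4%), 2 higher (14.3%) and 9 not called, so the lower share was near that of all genes. Zfand5, a ubiquitin-binding protein that stimulates the proteasome and is known from muscle atrophy, had the largest change, at 2831 ± 878 (SD, n = 5) against 17073 ± 2776 (SD, n = 4), a log2 fold change of -2.64 (adjusted p = 2.9e-05). Uchl5, a deubiquitinase of the regulatory particle, and Ecpas, which tethers core and regulatory particle, were at -1.09 and -1.12 (adjusted p = 0.00117 and adjusted p = 0.00524). The call of Ecpas ended under 1 alternative, its dimmest tested probe set (adjusted p = 0.0502). Psmf1, an inhibitor of the core, was higher at 0.90 (adjusted p = 0.0102), but its probe sets ending in _at gave -0.29. Its call also ended under each of the 4 other scalings and with the Actb ratio as a covariate (adjusted p = 0.0542 to 0.0694). The other higher gene, Rad23b, which shuttles ubiquitin-tagged proteins to the proteasome, was at 0.56 (adjusted p = 0.0329) and was named after its value was seen. The tissue-specific core subunits Psmb11 and Psma8 were below the floor on every array.

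Of 6 genes of ubiquitin activation and of the VCP unfoldase, 2 were higher (33.3%, against 30.1% of all genes) and 1 lower (16.7%, against 17.9%). Both shares were near those of all genes. Uba6, a ubiquitin-activating enzyme, was at 1.49 and Faf2, a VCP cofactor, at 1.20, while the cofactor Faf1 was at -0.80 (adjusted p = 0.000446, 0.000692 and 0.00479). The dimmest tested probe set of Uba6 gave -0.16 and was not called (adjusted p = 0.754). Of 6 genes of muscle atrophy, 4 were lower (66.7%, against 17.9% of all genes). Among them were Trim63 at -6.0 and Fbxo32 at -2.57, the ubiquitin ligases that mark muscle proteins for the proteasome. Mul1, a mitochondrial ligase, was at -1.15, but at -0.66 and not called with its dimmest tested probe set (adjusted p = 0.0843), and Foxo1, a transcription factor of atrophy genes, at -1.19.

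Genes of interferon response and antigen processing, the setting of the immunoproteasome, were measured as well. Of 23 tested, 10 were higher (43.5%, against 30.1% of all genes), 1 lower and 12 not called. Their median was 0.61, against 0.23 for all genes. The lower gene was Ifit3, an interferon-induced gene, at -1.02 (adjusted p = 0.0263), named after its value was seen. Among the 12 not called were Stat2, Irf2, Irf7, Irf8, Gbp2, Ifit1, Bst2, Ifi47, Igtp and Irgm1, of the interferon response. Ifi35, also of that response, was higher at 0.85 (adjusted p = 0.00686). These genes too were named after their values were seen. Tap1, which carries proteasome-made peptides across the membrane and lies beside Psmb9 in the genome, was at 468 ± 161 (SD, n = 5) against 132 ± 39.1 (SD, n = 4), a log2 fold change of 1.67 (adjusted p = 0.00117). Nlrc5, the activator of class I genes, was at 1.75 (adjusted p = 0.000328), Irf9, a subunit of an interferon-driven factor, at 2.00 (adjusted p = 8.8e-05) and Tapbp, a loading factor, at 1.80 (adjusted p = 2.9e-05). Pdia3, also of peptide loading, was at 1.98 and B2m, the light chain of class I molecules, at 1.11, where muscle 2, at 19074, lay within the tumour range. With the dimmest tested probe set, Tapbp was at 1.14 and B2m at 1.01, and neither was called (adjusted p = 0.160 and adjusted p = 0.0843). Tap2 was at 0.61 (adjusted p = 0.0503) and Irf1, a factor that induces Psmb8 and Psmb9, at -0.50 (adjusted p = 0.0616), both not called.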

How the data were processed

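Total RNA from 5 tumours and 4 skeletal muscles was measured on Affymetrix arrays, 1 per sample. MAS5 is the method the submitters' processing notes name, and its version and scaling target were not given in the sources used here. The deposited values are probe set intensities on a linear scale, with no detection calls in the table used. Of 30508 probe sets, 25581 had a single gene symbol in the probe annotation, 496 had several, 4424 none, and 7 were controls.

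With 2% trimmed off, array means lay between 430.2 and 610.0, so arrays were scaled to a common trimmed mean, and medians of the deposited values ran from 157 to 178. For a gene with several probe sets the one of highest mean log2 level was used. Values under the 40th percentile of an array counted as dim, and the 10650 genes above that floor on at least 4 arrays were tested.

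From the deposited intensities, levels were log2(scaled intensity + 16), so fold changes of dim genes are understated. The comparison of tumour with muscle used limma 3.58.1 (R 4.3.3), with lmFit and eBayes (trend on mean level). Tests were two-sided, and p-values were adjusted by Benjamini-Hochberg over all genes tested. Of these, 5112 (48%) were called, 3202 higher and 1910 lower. Values are mean scaled intensity ± SD. The 2 subunit ratios were tested with an exact permutation test over the 126 splits of the arrays. Of 3 ratios planned, 1 needed Psmb6 and Psmb9, which were not analysed here. No column belonged to another series, and no arrays held identical values. The number of arrays limits the precision.

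Tested on simulated data with 200 of 10650 genes changed, the procedure recovered 26% of 2-fold and 70% of 4-fold changes, and 5.88% of its calls were false. Far more genes, 5112, were called in the data, and the share recovered after adjustment depends on how many genes change. These percentages are thus no estimate for the comparison of tumour with muscle. The members, the lists (related genes and markers) and the rules were chosen with earlier results of these data known. Named in the text are all proteasome genes, up to 4 called genes with the largest change of each related list, and Nfe2l1, Nfe2l2, Pomp, Psmf1, Irf1, Nlrc5, Tap1, Tap2 and B2m. Besides these stand markers, and genes stated to be named after their values were seen. All 35 symbols matched a RefSeq gene. Alternatives were 4 scalings, pseudocounts of 1 and 64, 2 filters, 3 choices of probe set, 2 settings of the fit, the CC17 tumours averaged, and each array left out. Added after seeing the data were the Actb ratio as a covariate, leaving out tumour 1 and muscle 2 together, and a fit over all probe sets.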

Additional observations from a re-analysis of the deposited data

Results flagged for a closer look

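In 122 groups of 4 or 5 arrays, 13 had an array whose gap to the nearest other took up most of the range of log2 levels. Chance flags about 1 in 20 groups. Of these, 11 concerned muscle 2, the intercostal sample. It was low for Psma6 (12899 against 21590 to 23223 in the other muscles), Psmb4 (9069 against 13921 to 14163), Psmc2 (8425 against 17639 to 19381), Psmc3 (5529 against 8157 to 8661), Psmd2 (3674 against 4236 to 4294) and Psmd11 (7348 against 11028 to 11865). It was also low for Psmf1 (216 against 413 to 457), Ecpas (1393 against 2579 to 2806) and Trim63 (7023 against 16130 to 17240). It was high for Faf2 (484 against 319 to 333) and B2m (19074 against 7674 to 8795). Among tumours, tumour 2 was low for Faf1 (1302 against 1710 to 1774) and tumour 4 for Foxo1 (805 against 1102 to 1225). Muscle 2 also had the highest adipocyte markers, with a summed level of 115131, and their part in these values was not tested.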

How the results depend on the processing

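Over 25 alternatives, the count of lower proteasome genes ran from 10 to 21 (16 as reported) and their median log2 fold change stayed negative, from -0.80 to -0.25. Quantile normalization moved them most, to 11 called, 10 of them lower, and a median of -0.25. The median was -0.75 on the values as deposited, -0.80 with arrays centred on their median, -0.72 with only probe sets ending in _at and -0.74 with the Actb ratio as a covariate. Leaving out 1 array gave 11 to 20 lower genes. Over the scalings the share of higher calls among all genes fell from 62.6% to as low as 52.3%, and the median of all genes from 0.23 to 0.05 with arrays centred on their median. The subunit ratios kept their direction and their call wherever computed, at 1.11 to 2.15 for Psmb8 to Psmb5 and 0.82 to 1.88 for Psmb10 to Psmb7, with adjusted exact permutation p of 0.00794 to 0.0476. With only probe sets ending in _at the first ratio could not be computed.

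Signs changed in a few genes, none of them called there. Psmd14 was at -0.11 as deposited, -0.16 with median centring and -0.034 with centring on ribosomal protein genes, and ran from -0.035 to 0.091 over arrays left out. Psmd3 ran from -0.20 to 0.026 over arrays left out. Quantile normalization gave 0.23 for Psma5 and 0.19 for Psmb4, and averaging all probe sets 0.33 for Psmd13. With the dimmest tested probe set of each gene, Psma1 was at 0.021, Psmd4 at 0.28, Psme3 and with it the median of the activators at 0.28, and Uba6 at -0.16. Psmf1 was at -0.29 with probe sets ending in _at. The cause was not tested. Of 868 values of proteasome genes under the alternatives, 739 kept their direction and call, 61 lost a call, 52 gained a call and 16 changed sign. No paired analysis was possible because the labels number no samples across tumour and muscle. The number of arrays and signal over background limit what could be called.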
